A study of Mus musculus with 6 samples.

Results

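Mast cells and neutrophils store proteases, amines and proteoglycans in secretory granules, and 10 genes of that system were followed here: Kit, Cpa3, Ms4a2, Fcer1g, Hdc, Gzmb, Srgn, Prtn3, Mpo and Elane. The members were chosen by name, as the rows of the mRNA count table that carry these symbols, and they are 10 of 41255 genes in that table. Of the 10 genes, 7 were expressed in Ba/F3 cells, Mpo was at a trace level, and Kit and Elane were silent. Between R98S and WT clones, Prtn3 was lower by 2.83 ± 0.46 (SE, n = 3 per group) on the log2 scale and Srgn by 0.62 ± 0.19 (SE, n = 3 per group). In fits that each left out 1 clone, Prtn3 was called in 6 of 6 and Srgn in 1 of 6. None of the 7 tested genes was called higher.

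mRNA was sequenced from 6 cultures of Ba/F3, a mouse lymphoid line that needs interleukin-3 to grow. Each culture was grown from a single-cell colony and carried a retroviral cDNA of human RPL10, a protein of the large ribosomal subunit, either as WT (clones 28, 29 and 36) or with arginine 98 changed to serine (R98S, clones 11, 13 and 35). Endogenous mouse Rpl10 was knocked down by shRNA in all 6 clones, and all of them received cycloheximide at 100 µg/ml for 5 min before harvest. The libraries held 21786776 to 24204991 reads assigned to genes, 1 library per clone. Each p-value below thus sets a group difference against a spread between clones of a group, which limma moderates as described below. Of 15 B lineage markers, 10 had no more than 3 reads in any clone, among them Pax5 and Rag1, while the antigen receptor subunit Cd79a, singled out after its values were seen, was at 996 to 1507 normalized counts.

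As background, mast cells sense stem cell factor through the receptor Kit and sense antigen-bound IgE through the high-affinity receptor FcεRI, made of a ligand-binding alpha chain, a beta chain and paired gamma chains. Receptor crosslinking empties granules that hold histamine, carboxypeptidase and chymase, packed on the sulphated chains of the proteoglycan serglycin. Neutrophil precursors use the same proteoglycan to store myeloperoxidase and the serine proteases elastase and proteinase 3 in azurophil granules.

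Values are normalized counts, the reads of a gene divided by the size factor of its library, so that 1 read is worth between 0.925 and 1.07 normalized counts. A gene was called silent where no clone had more than 3 reads, low where its mean was under 10 normalized counts, and expressed above that. Genes with a mean of at least 10 were compared by limma on log2(normalized count + 1), and log2 fold changes below are R98S minus WT on that scale. For each gene limma moderates the variance, drawing it towards that of genes at a similar level, and the SEs and p-values rest on it. For members with a wide spread between clones this SE is smaller than those clones alone would give. An adjusted p under 0.1 (Benjamini-Hochberg over 11550 genes) counted as a call.

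Members were called in 2 of 7 tested cases, against a background of 23.9% of all genes tested. Both calls were lower in R98S, where 13.1% of all genes were called lower, and 0 members were called higher, where 10.7% of all genes were. No member was higher at an unadjusted p under 0.05 by limma, and edgeR and DESeq2 called 0 higher and 2 lower as well. The WT and R98S ranges did not overlap in 3 of 7 tested members (Fcer1g, Srgn and Prtn3), against 37.3% of all genes tested. The median log2 fold change was -0.53 over the 7 tested members and -0.01 over all tested genes. These shares are those of a small set and say nothing particular about it.

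**Figure D1:**
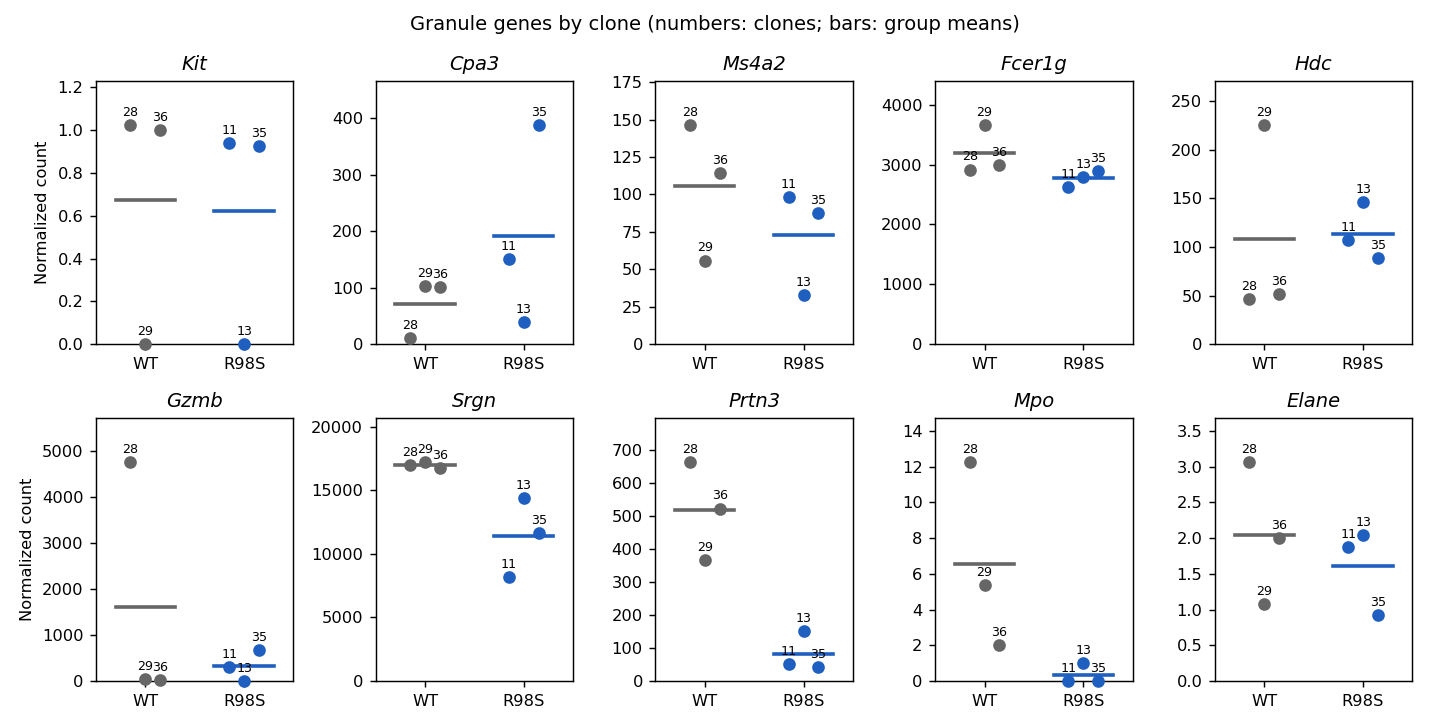
Normalized counts (y axes, linear, from 0, a separate scale in each panel) of the 10 genes in 3 WT (grey) and 3 R98S (blue) clones, with clone numbers beside the points and horizontal bars at group means. Prtn3 lay at 366 to 665 in WT and at 42.6 to 152 in R98S, Srgn was lower in all R98S clones, and Gzmb spread from 3.06 to 4770 without following the genotype.

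The order of levels was read per kilobase of exon, averaged over the 6 clones. Srgn came first at 6473 normalized counts per kb, a level above 98.8% of 10999 tested genes with a matched length. Fcer1g followed at 3414 (above 97.8%) and Gzmb at 675 (above 84.4%), but the mean of Gzmb rested mostly on WT clone 28. Prtn3 was near the middle at 173 per kb (above 48.4%). Cpa3 at 87.0, Ms4a2 at 31.7 and Hdc at 17.4 per kb were in the lower part. Elane at 1.86, Mpo at 1.01 and Kit at 0.0727 per kb were at the bottom. Over the 6 clones the per-kb range of each gene overlapped that of the next in this order, except that Hdc (7.21 to 35.3) stayed above Elane (0.940 to 3.12). Within clones, Srgn was above Fcer1g in 6 of 6 and Fcer1g above Gzmb in 6 of 6, whereas Gzmb was above Prtn3 in 3 of 6.

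The receptor Kit (chr5:75574916-75656722, plus strand, GRCm38) marks mast cells and blood progenitors. It had 1, 0 and 1 reads in clones 28, 29 and 36 (WT), and 1, 0 and 1 reads in clones 11, 13 and 35 (R98S). This is at or below the 3 reads per library that a count of 0 allows, so no difference was detectable at this depth. The ligand gene Kitl had at most 4 reads in any clone. Of 21 genes in a list of the ligand and KIT signalling, the 20 other than Kitl were tested. In these, 1 was called higher and 5 lower (10.7% and 13.1% of all tested genes), with a median log2 fold change of -0.18. Sh2b3, an adaptor that restrains cytokine receptor signalling, fell by 0.88 (limma adjusted p = 0.0127), and the adaptor Shc1 fell by 0.67 (limma adjusted p = 0.0108). Socs1, a feedback inhibitor of JAK kinases, rose by 0.82 (limma adjusted p = 0.00739). The catalytic subunit gene Pik3cg fell by 0.62 (limma adjusted p = 0.0727). The 6 calls of this list became 3 without WT clone 28 and 3 without R98S clone 11. The Pik3cg call was lost without WT clone 28 or 36 or R98S clone 11 or 35 (limma adjusted p up to 0.210).

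The IgE receptor was present only in part. Fcer1g (chr1:171229572-171234365, minus strand), the signalling gamma chain shared by several Fc receptors, was at 2917, 3662 and 2996 normalized counts in clones 28, 29 and 36 (WT), and at 2627, 2800 and 2899 in clones 11, 13 and 35 (R98S). All R98S clones were below all WT clones, but the gap between the nearest clones was narrow. The log2 fold change was -0.20 ± 0.12 (SE, n = 3 per group, limma adjusted p = 0.293), which is not past the threshold. Fcer1g was also among the steadier genes, with a within-group SD of 0.14 on the log2 scale, and 25.3% of tested genes had an SD no larger.

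Ms4a2 (chr19:11615523-11623719, minus strand), the beta chain that amplifies the receptor signal, was at 146, 55.9 and 114 normalized counts in WT and at 98.5, 32.7 and 87.9 in R98S, in the same clone order. The groups overlapped, and the log2 fold change was -0.57 ± 0.49 (SE, n = 3 per group, limma adjusted p = 0.464). Fcer1a, the alpha chain that binds IgE, had 0 reads in all 6 clones, which allows up to 3 reads in each. Per kb of exon the gamma chain was at 3414 and the beta chain at 31.7, with no alpha chain read.

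Other receptors that can signal through the gamma chain, or belong to the same families, were described as a list of 13 genes with rows in the table. Of these 7 were tested, with 1 called higher and 3 lower (10.7% and 13.1% of all tested genes). Their median log2 fold change was -0.18. Clec4e, a C-type lectin that senses mycobacterial glycolipid, was at 5827, 9549 and 3056 normalized counts in WT and at 1368, 1107 and 909 in R98S, and fell by 2.32 (limma adjusted p = 0.00739). Fcgr2b, the inhibitory IgG receptor, fell by 1.58 (limma adjusted p = 0.00784). Csf2rb, the common beta chain of the interleukin-3 receptor, rose by 0.53 (limma adjusted p = 0.0509), a call lost without WT clone 28 or 36 or R98S clone 11 (limma adjusted p up to 0.193). Fcgr1, the high-affinity IgG receptor, was chosen after its values were seen: it had 21.02 to 44.0 normalized counts in WT and 0.938 to 3.06 in R98S, and passed the filter through its WT level alone.

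Most cytoplasmic parts of the IgE receptor pathway were measured, with 21 of 22 genes tested. Calls were 2 higher and 3 lower (10.7% and 13.1% of all tested genes), with a median log2 fold change of -0.06. Lcp2 (SLP-76), an adaptor downstream of Syk, fell by 1.42 (limma adjusted p = 0.021), and Lat, its membrane partner, fell by 1.29 (limma adjusted p = 0.0257). Lat was at 971, 776 and 1248 normalized counts in WT against 251, 478 and 533 in R98S. The ubiquitin ligase gene Cblb rose by 0.79 (limma adjusted p = 0.027) and the kinase gene Fyn by 0.61 (limma adjusted p = 0.0603). The remaining call, seen after the fit, was Plcg2, a phospholipase that fell by 0.56 (limma adjusted p = 0.0322). Without WT clone 36 the list had 8 calls in place of 5. The Fyn call was kept only without WT clone 29 and was lost in the other 5 fits (limma adjusted p up to 0.185).

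**Figure D2:**
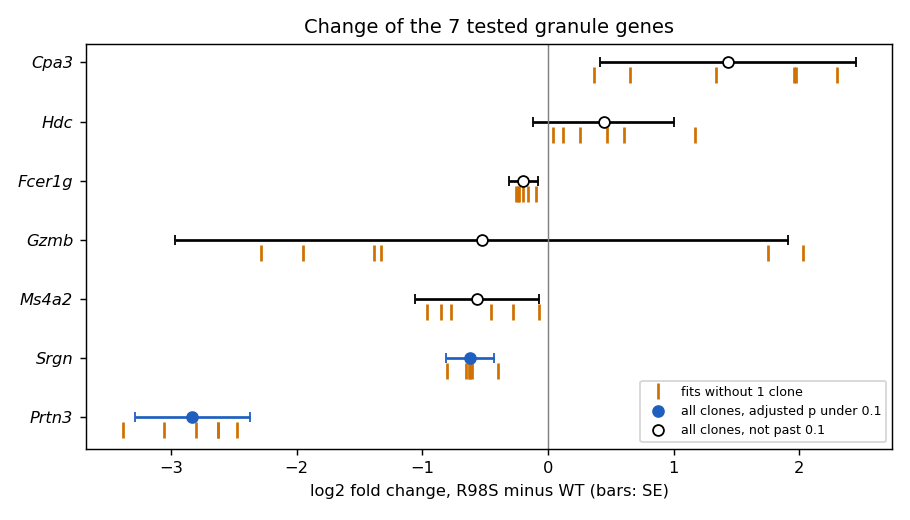
Log2 fold change of the 7 tested genes (x axis, R98S minus WT). Bars are moderated SEs from limma (n = 3 clones per group), and ticks are the 6 fits that each leave out 1 clone. Prtn3 stayed between -3.38 and -2.48 in all 6 fits, whereas the ticks of Gzmb lay on both sides of 0.

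Cpa3 (chr3:20215620-20242181, minus strand) encodes carboxypeptidase A3, an abundant mast cell granule protease. Its normalized counts were 10.2, 103 and 101 in clones 28, 29 and 36 (WT), and 150, 38.8 and 389 in clones 11, 13 and 35 (R98S). WT clone 28 was the lowest and R98S clone 35 the highest, a 10.1-fold range within WT and a 10.02-fold range within R98S. The log2 fold change of 1.43 ± 1.02 (SE, n = 3 per group, limma adjusted p = 0.372) was within that spread.

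Hdc (chr2:126593667-126619299, minus strand), which encodes the enzyme that makes histamine from histidine, was at 46.1, 226 and 52.0 normalized counts in WT and at 107, 146 and 88.8 in R98S. WT clone 29 was higher than all other clones, and the other WT clones were below all R98S clones. With 6 clones the log2 fold change was 0.44 ± 0.56 (SE, n = 3 per group, limma adjusted p = 0.624). Without WT clone 29 it was 1.17 with a limma adjusted p of 0.0645, so that this clone decided whether Hdc was called. Slc18a2, the vesicular transporter that loads histamine into granules, was at 9791 to 16673 normalized counts in WT and 14065 to 17035 in R98S (2667 per kb, against 17.4 for Hdc), with a log2 change of 0.39 (limma adjusted p = 0.227). A list for histamine storage, reception and breakdown also held Azin1, Oaz1 and Oaz2, which act in polyamine control. Of its 9 genes, 6 were tested. Among them 0 were called higher and 1 gene lower (10.7% and 13.1% of all tested genes). That gene was the histamine receptor Hrh1, which fell by 0.91 (limma adjusted p = 0.0377) and lost its call without WT clone 28 or 29 (limma adjusted p up to 0.144). edgeR and DESeq2 also called 0 higher and 1 lower, and limma had 0 higher at an unadjusted p under 0.05. The count became 0 without WT clone 28 or 29, 3 without WT clone 36 and 2 without R98S clone 13.

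The start regions of Ms4a2, Cpa3 and Hdc are shown because, of the 10 members, these 3 hold a GATA hexamer there, the motif of the factors Gata1 and Gata2. RefSeq start regions were matched for all 10 members. The sequences are on GRCm38, 5′ to 3′ in the direction of the gene, and span 250 bases before and 50 bases after the start. Capitals mark GATA with A or T before it and A or G after it, on either strand, and shared letters with other motifs were not considered.

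Ms4a2 (chr19:11623670-11623969, minus strand): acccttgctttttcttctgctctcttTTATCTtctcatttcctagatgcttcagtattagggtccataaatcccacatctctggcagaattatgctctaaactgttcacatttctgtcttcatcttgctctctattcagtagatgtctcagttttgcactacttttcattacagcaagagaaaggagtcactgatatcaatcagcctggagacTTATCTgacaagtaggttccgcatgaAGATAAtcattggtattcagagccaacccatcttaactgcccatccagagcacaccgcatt
Cpa3 (chr3:20242132-20242431, minus strand): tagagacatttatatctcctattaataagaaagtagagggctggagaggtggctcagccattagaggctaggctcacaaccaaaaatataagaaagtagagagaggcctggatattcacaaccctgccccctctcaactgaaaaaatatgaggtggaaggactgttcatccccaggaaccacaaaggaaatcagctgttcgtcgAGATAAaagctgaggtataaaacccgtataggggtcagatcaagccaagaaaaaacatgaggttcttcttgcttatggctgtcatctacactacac
Hdc (chr2:126618629-126618928, minus strand): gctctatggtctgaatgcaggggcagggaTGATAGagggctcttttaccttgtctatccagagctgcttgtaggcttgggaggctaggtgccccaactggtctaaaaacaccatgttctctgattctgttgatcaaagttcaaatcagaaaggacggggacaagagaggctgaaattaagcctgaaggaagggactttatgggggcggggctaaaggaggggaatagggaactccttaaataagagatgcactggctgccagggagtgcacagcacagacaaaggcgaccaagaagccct

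Ms4a2 held 3 such hexamers, at 224, 37 and 11 bases before the start. Cpa3 held 1 at 46 bases and Hdc 1 at 221 bases before the start. The RefSeq start of Hdc used here, and its hexamer, lie inside the GENCODE gene interval given above. At least 1 hexamer was found in 29.8% of 32851 start regions of the same length, so a match is a description of the letters and not of binding. Gata2 itself was at 27510, 24872 and 29517 normalized counts in WT and at 13577, 17337 and 14403 in R98S, and fell by 0.86 (limma adjusted p = 0.00666). Gata1 was at 1605 to 3021 in R98S and 1633 to 2836 in WT, with a log2 change of 0.12 (limma adjusted p = 0.792). None of the 3 members with a hexamer was called in the fit of 6 clones.

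Other mast cell and basophil genes ranged from silent to strongly expressed. Of 28 genes in the list 9 were tested, and 12 had no more than 3 reads in any clone. Tested genes held 1 call higher and 2 lower (10.7% and 13.1% of all tested genes), with a median log2 fold change of -0.44. Tpsb2, the mast cell tryptase, had at most 3 reads. Rab27b, a GTPase that docks granules at the membrane, was at 3462, 4979 and 2421 normalized counts in WT and at 972, 1344 and 1256 in R98S, and fell by 1.56 (limma adjusted p = 0.0079). Cd200r3, a receptor of mast cells and basophils, fell by 1.58 (limma adjusted p = 0.0743). Tph1, an enzyme of serotonin synthesis picked after its values were seen, had 0 to 3.00 normalized counts in WT and 2.04 to 32.8 in R98S, passed the filter through its R98S level alone and had a limma adjusted p of 0.0993. Leaving out WT clone 29, R98S clone 11 or R98S clone 35 reduced the 3 calls to 1. The Cd200r3 call was kept only without WT clone 28 (limma adjusted p up to 0.218 otherwise), and the Tph1 call was lost without WT clone 28 or 29, while Tph1 was under the filter without R98S clone 11 or 35.

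The chymase Cma1 was expressed in all clones but low in R98S clone 13, while Kit, Fcer1a and Tpsb2 were silent. Cma1 was at 664, 2190 and 1712 normalized counts in WT and at 2104, 28.6 and 2348 in R98S (limma adjusted p = 0.570). R98S clone 13 was the low clone, and in that clone Mcpt8, a basophil protease, had 0 reads, against 12.9 to 33.0 normalized counts in WT and 60.05 and 52.7 in the other two R98S clones. The same clone had the lowest Ms4a2 and Gzmb values of the 6, but the highest Hdc, Srgn and Prtn3 values of the R98S clones. Its Cpa3 value of 38.8 was the lowest in R98S but above that of WT clone 28 (10.2).

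Gzmb (chr14:56258838-56262260, minus strand) encodes granzyme B, a serine protease of cytotoxic lymphocyte granules that mast cells can also make. Its normalized counts were 4770, 44.1 and 11.0 in clones 28, 29 and 36 (WT), and 310, 3.06 and 682 in clones 11, 13 and 35 (R98S). WT clone 28 was far above the rest, and R98S clone 13 had only 3 reads. The range within a group was 433-fold in WT and 223-fold in R98S. The within-group SD was 4.27 on the log2 scale, the highest of all 11550 genes tested on that scale. The log2 fold change of -0.53 ± 2.44 (SE, n = 3 per group, limma adjusted p = 0.905) has no stable sign: it was 2.03 without WT clone 28 and 1.75 without R98S clone 13.

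Gzmb lies at the end of a protease cluster on chromosome 14 that also holds Cma1, Mcpt8 and Ctsg. The nearest relatives were near 0, with at most 4 reads for Gzmc (24.2 kb away), 2 for Gzmf (47.4 kb) and 2 for Gzmn (84.2 kb), and 0 reads for Gzmg and Gzmd. Gzme, 138 kb away, had more, with up to 18 reads in a clone. No gene between Gzmb and Gzmn in this list had a level near that of Gzmb in WT clone 28. Ctsg, 156 kb away, was also highest in WT clone 28, at 144 normalized counts, while Cma1, 314 kb away, was lowest there among WT clones.

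Of 14 other granzymes, perforin and granzyme inhibitors, 6 were tested and 0 were called, against 23.9% of all tested genes. At an unadjusted p under 0.05 limma had 0 higher and 1 lower, edgeR and DESeq2 called 0, and leaving out R98S clone 13 gave 1 call. Gzma had 0 reads in all clones. Prf1, the pore protein perforin that lets granzymes into target cells, was at 7.01 to 17.4 normalized counts in WT and 15.01 to 50.9 in R98S, a log2 change of 1.03 (limma adjusted p = 0.227). Serpinb9, an inhibitor of granzyme B, had a log2 change of 0.32 (limma adjusted p = 0.490), and Serpinb6a had one of -0.50 (limma adjusted p = 0.151). Ctsc, the dipeptidyl peptidase that activates granzymes and azurophil proteases, was at 4217 to 6552 normalized counts in R98S and 4638 to 5194 in WT (limma adjusted p = 0.582).

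**Figure D3:**
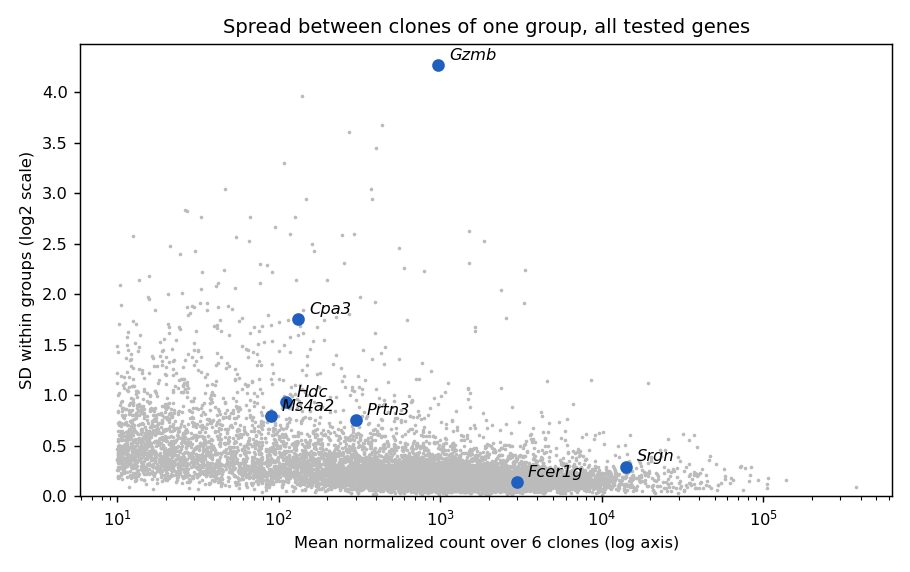
Within-group SD on the log2 scale (y axis) against the mean normalized count over 6 clones (x axis, log scale) for 11550 tested genes (grey), with the 7 tested members in blue. Gzmb is at the top with an SD of 4.27, whereas Fcer1g (0.14) and Srgn (0.29) lie in the main band of genes.

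The spread between clones differed among the members. The mast cell genes Cpa3, Hdc and Ms4a2 had within-group SDs of 1.75, 0.93 and 0.79 on the log2 scale, larger than or equal to 99.3%, 96.7% and 95.3% of tested genes. Prtn3 had an SD of 0.75 (94.8%) and Srgn one of 0.29 (71.6%). Low counts alone give more spread on this scale, and how much of these ranks comes from that was not tested.

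Srgn (chr10:62493833-62527451, minus strand) encodes serglycin, the proteoglycan core that holds proteases and amines in the granule. Its normalized counts were 17003, 17275 and 16805 in clones 28, 29 and 36 (WT), and 8167, 14419 and 11613 in clones 11, 13 and 35 (R98S). The WT clones were nearly equal (17028 ± 236, SD, n = 3), and the R98S clones were all lower and more spread (11400 ± 3131, SD, n = 3). The log2 fold change was -0.62 ± 0.19 (SE, n = 3 per group, limma adjusted p = 0.0639). This call was kept without R98S clone 13 (limma adjusted p = 0.0202) and lost when any other clone was left out, with adjusted p between 0.11 and 0.156. The size of the change moved little in those fits except without R98S clone 11, where it was -0.40. In bulk RNA, fewer cells with Srgn and less Srgn mRNA per cell cannot be told apart, and the same holds for every gene here.

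Serglycin works through glycosaminoglycan chains, and of 28 genes for chain synthesis and sulphation 21 were tested, 0 were called higher and 6 lower (10.7% and 13.1% of all tested genes), with a median log2 fold change of -0.26. edgeR and DESeq2 called 0 higher and 6 lower, and limma had 0 higher at an unadjusted p under 0.05. Papss1, which makes the sulphate donor PAPS, fell by 0.77 (limma adjusted p = 0.00964). It was at 1821, 1976 and 1838 normalized counts in WT and at 1276, 1099 and 958 in R98S. The chondroitin sulphotransferase gene Chst11 fell by 0.70 (limma adjusted p = 0.0274), Csgalnact2, which starts chondroitin chains, by 0.55 (limma adjusted p = 0.0313) and the heparan sulphotransferase gene Hs2st1 by 0.52 (limma adjusted p = 0.0434). Without WT clone 28 there were 2 calls in this list, and without WT clone 29 there were 3. Csgalnact2 lost its call without WT clone 28 (limma adjusted p = 0.107), and Hs2st1 without WT clone 28 or 29 or R98S clone 35 (limma adjusted p up to 0.124).

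Of 31 granule transport and exocytosis genes 27 were tested, with 0 called higher, 7 lower (10.7% and 13.1% of all tested genes) and a median log2 fold change of -0.25. edgeR called 0 higher and 7 lower, DESeq2 0 and 8, and limma had 0 higher at an unadjusted p under 0.05. Besides Rab27b, the GTPase gene Rab12 fell by 1.003 (limma adjusted p = 0.0135), and the fusion proteins Stx11 and Vamp2 fell by 0.94 (limma adjusted p = 0.0457) and 0.75 (limma adjusted p = 0.0112). There were 4 calls without WT clone 29 and 4 without R98S clone 11, and Stx11 was not called in either fit (limma adjusted p up to 0.136).

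Prtn3 (chr10:79874476-79883174, plus strand) encodes proteinase 3, a serine protease of azurophil granules. It was at 665, 366 and 522 normalized counts in clones 28, 29 and 36 (WT), and at 52.5, 152 and 42.6 in clones 11, 13 and 35 (R98S). Every R98S clone was below every WT clone, and R98S clone 13 was the nearest to WT. The WT mean was 518 ± 149 and the R98S mean 82.4 ± 60.6 (SD, n = 3), a ratio of 6.28. The log2 fold change was -2.83 ± 0.46 (SE, n = 3 per group, limma adjusted p = 0.00805), and it was called in all 6 fits without 1 clone (-3.38 to -2.48, limma adjusted p from 0.00173 to 0.0392). Prtn3 shares 159 exon bases with Plppr3 on the other strand, a gene not analysed here. The strand setting of the counting is not given in the sources used here, so reads from those bases cannot be assigned to either gene with certainty.

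Elane (chr10:79886247-79888215, plus strand), which encodes neutrophil elastase and starts 3.1 kb beyond the end of Prtn3, was silent. It had 3, 1 and 2 reads in WT and 2, 2 and 1 in R98S, at or under the floor of 3 reads, so no difference was detectable. Prtn3 was thus expressed beside a silent neighbour of the same granule. Cfd, the next gene on that side, had at most 1 read. Among the other neighbours, Ptbp1, a splicing regulator, did not pass the test (log2 fold change -0.06, limma adjusted p = 0.762), Med16, a Mediator subunit, fell by 0.58 (limma adjusted p = 0.0232), and R3hdm4 had a log2 change of -0.54 (limma adjusted p = 0.121).

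The start regions of Prtn3 and Elane are shown side by side because these neighbours differ in level. They are from RefSeq on GRCm38, 5′ to 3′, with the same span as above. Capitals mark GGAA on either strand, the core letters bound by ETS factors such as PU.1, the product of Spi1.

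Prtn3 (chr10:79879417-79879716, plus strand): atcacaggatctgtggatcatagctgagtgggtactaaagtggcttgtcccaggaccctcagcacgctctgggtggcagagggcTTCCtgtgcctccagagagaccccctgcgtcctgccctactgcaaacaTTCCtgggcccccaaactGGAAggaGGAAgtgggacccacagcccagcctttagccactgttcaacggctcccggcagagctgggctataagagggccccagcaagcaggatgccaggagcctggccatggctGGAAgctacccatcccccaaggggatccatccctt
Elane (chr10:79886062-79886361, plus strand): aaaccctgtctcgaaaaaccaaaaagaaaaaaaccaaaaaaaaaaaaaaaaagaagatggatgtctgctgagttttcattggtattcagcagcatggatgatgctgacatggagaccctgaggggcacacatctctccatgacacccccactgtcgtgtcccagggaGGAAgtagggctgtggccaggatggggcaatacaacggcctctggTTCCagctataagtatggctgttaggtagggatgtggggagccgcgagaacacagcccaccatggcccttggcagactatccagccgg

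Prtn3 held 5 GGAA cores and Elane 2, and neither held a GATA hexamer. Among the other members the number of cores ran from 0 (Gzmb, expressed) to 7 (Fcer1g, expressed), and Mpo, at a trace level, held 5. Such a core was found in 96.0% of start regions of this length, so it does not separate these genes from others. The RefSeq starts of Prtn3 and Elane used here lie inside the GENCODE gene intervals given above. Spi1 was at 1316 to 1703 normalized counts in WT and 919 to 1622 in R98S (log2 fold change -0.44, limma adjusted p = 0.206).

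Mpo (chr11:87793581-87804413, plus strand), which encodes myeloperoxidase, was at a trace level. It had 12, 5 and 2 reads in WT and 0, 1 and 0 in R98S, so that all WT clones had more reads than any R98S clone. Pooled over clones these were 19 and 1 reads, a depth-scaled ratio of 20.1 with an exact 95% interval of 3.20 to 837 that covers counting error only. WT clone 28 held 12 of the 19 reads. Mpo was under the filter and was not tested in the fit of 11550 genes. With no filter its log2 fold change was -2.33 (limma adjusted p = 0.0491). Gm11505, an antisense gene that overlaps 207 exon bases of Mpo, had 0 reads.

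A list for other azurophil granule genes also held genes of protein sorting and folding (Ap3b1, Ap3d1 and Calr) and the inhibitor genes Serpinb1a and Cst7. Of its 15 genes 13 were tested, with 1 called higher and 4 lower (10.7% and 13.1% of all tested genes). Their median log2 fold change was -0.17. Ctsg, cathepsin G, was at 144, 24.7 and 11.0 normalized counts in WT and had 0 reads in all R98S clones, at least 20.8-fold lower when 3 reads per library are taken as the floor. WT clone 28 carried most of that mean, and without it the bound was at least 6.20-fold. Lyz2, lysozyme, picked after its values were seen, was at 4.10, 24.7 and 43.0 in WT and 0 to 1.85 in R98S. Both genes passed the filter through WT alone, so the filter favoured a lower call and their calls carry little weight. Ms4a3, a marker of granulocyte and monocyte precursors, was at 2864, 722 and 4014 normalized counts in WT and at 693, 314 and 618 in R98S, and fell by 1.98 (limma adjusted p = 0.0585). The tetraspanin gene Cd63 rose by 0.56 (limma adjusted p = 0.0878), and the chaperone gene Calr fell by 0.43 (limma adjusted p = 0.0878). Leaving out WT clone 28 reduced the 5 calls to 1, leaving out WT clone 29 or R98S clone 11 to 2, and leaving out R98S clone 35 to 3. Ms4a3 was called only without WT clone 29 (limma adjusted p up to 0.160 otherwise). Cd63 lost its call without WT clone 28 or 29 or R98S clone 11 or 35, and Calr without WT clone 28 or 29 or R98S clone 11 or 13.

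Genes of later neutrophil granules had a summed level of 784 to 876 normalized counts in WT and 391 to 904 in R98S. Of 15 such genes 6 were tested, with 0 called higher and 5 lower (10.7% and 13.1% of all tested genes). But 4 of those 5 (S100a9, S100a8, Mmp8 and Ngp) passed the filter through WT alone, so their number says little. The other tested gene was not called and had a log2 fold change of 0.49. S100a9, a calcium-binding protein of neutrophils, was at 120, 207 and 10.01 normalized counts in WT and at 0, 1.02 and 2.78 in R98S. Its partner S100a8 was at 63.5, 92.4 and 7.01 in WT and at 0.938, 0 and 0 in R98S. WT clone 36 was the low WT clone for both. Mmp9, a gelatinase named after its values were seen, was above the filter in both groups, at 104, 95.6 and 159 in WT and 26.3, 39.8 and 34.2 in R98S (limma adjusted p = 0.00805). edgeR and DESeq2 called 0 higher and 5 lower, limma had 0 higher at an unadjusted p under 0.05, and the count was 3 without WT clone 29 and 3 without R98S clone 11.

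A list of cathepsins, proteases of lysosomes and granules, also held legumain and the protease inhibitor genes Cst3, Cstb and Cst7. Of its 17 genes 11 were tested. With a median log2 fold change of 0.04, 0 were called higher and 2 lower (10.7% and 13.1% of all tested genes). Besides Ctsg this was Lgmn, legumain, which was at 3971, 4407 and 3647 normalized counts in WT and at 511, 937 and 624 in R98S and fell by 2.58 (limma adjusted p = 0.000351). At an unadjusted p under 0.05 limma had 1 higher, edgeR called 0 higher and DESeq2 called 1 higher and 3 lower. The count was 1 without WT clone 28 and 4 without R98S clone 13.

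Of 23 transcription factors known for mast cell and granulocyte genes, 18 were tested, 0 were called higher and 8 lower (10.7% and 13.1% of all tested genes), with a median log2 fold change of -0.39. edgeR and DESeq2 each called 0 higher and 7 lower, and limma had 0 higher at an unadjusted p under 0.05. Besides Gata2, the repressor gene Zeb2 fell by 1.60 (limma adjusted p = 0.0079) and Lyl1 by 1.15 (limma adjusted p = 0.00201), and both were called in all 6 fits without 1 clone. Bhlhe40 fell by 1.34 (limma adjusted p = 0.0989), but its groups overlapped (4678, 5034 and 7327 in WT against 1304, 5377 and 1523 in R98S) and the call was kept only without R98S clone 13. Cebpb fell by 0.90 (limma adjusted p = 0.0691), a call lost without WT clone 28 or 29 or R98S clone 11 or 35. Cebpa and Gfi1, regulators of early granulocyte differentiation, had no more than 3 reads in any clone. Mitf, a master regulator of mast cells, had a log2 change of -0.34 (limma adjusted p = 0.361), and Cebpe, a regulator of late granule genes, one of -0.32 (limma adjusted p = 0.228). Without WT clone 28, and without WT clone 29, there were 5 calls.

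**Figure D4:**
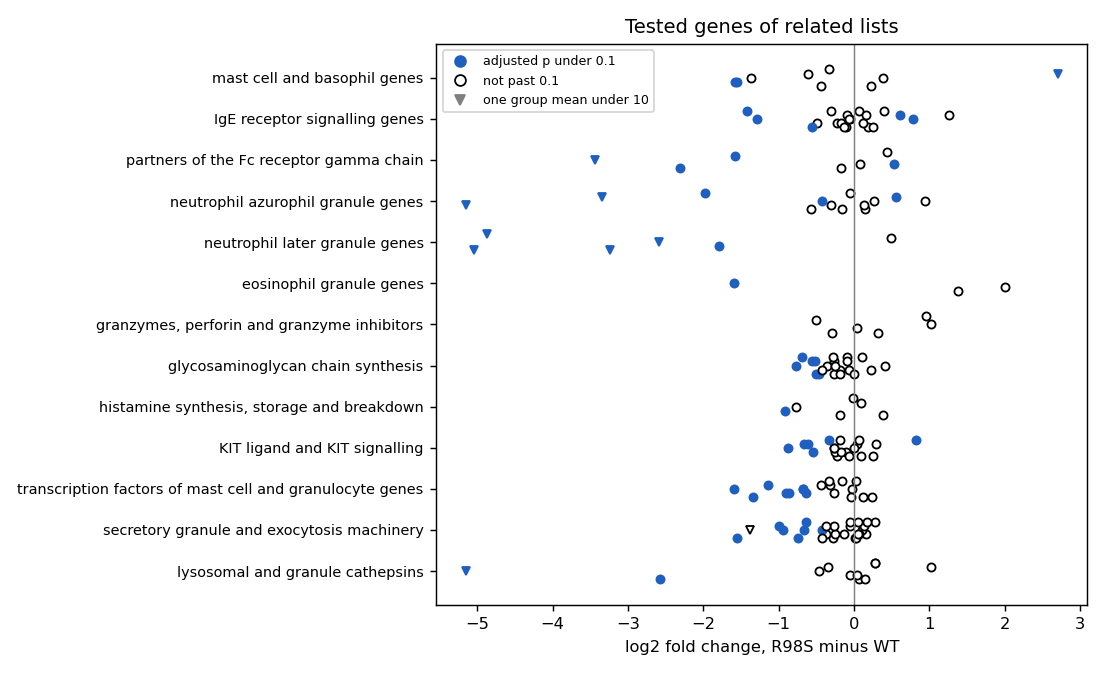
Log2 fold change (x axis, R98S minus WT) of each tested gene in 13 related lists, filled blue where the limma adjusted p was under 0.1. Triangles are genes with a mean under 10 normalized counts in one group only, which include S100a8, S100a9 and Ctsg on the left.

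Some markers of other blood cells differed too. Macrophage markers had a summed level of 9224 to 12597 normalized counts in WT and 779.7 to 3139 in R98S. This sum was mostly Emr1, the macrophage antigen F4/80, which fell by 2.74 (limma adjusted p = 0.00834). Emr1 was the 1 call (2 without R98S clone 13) among 3 tested markers, where 13.1% of all tested genes were called lower. Of 10 markers in the list, 5, including Mrc1, Marco and C1qa, had no more than 3 reads. T lineage markers were low, with a summed level of 64.5 to 121 in WT and 197 to 249 in R98S. Of 11 such markers 3 were tested, and all 3 were called higher, where 10.7% of all tested genes were. Cd247 rose by 2.25 (limma adjusted p = 0.00706), Cd3d by 2.17 (limma adjusted p = 0.0112) and Lck by 1.16 (limma adjusted p = 0.0355, not called without WT clone 28). Cd3e and Cd4 had no more than 3 reads, and Cd3g, named after its values were seen and not tested, ran the other way, at 3.07, 3.22 and 43.0 normalized counts in WT and 0.938, 1.02 and 1.85 in R98S. The part of these shifts in the differences of Prtn3, Srgn and the related genes was not tested.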

How the data were processed

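Poly(A) RNA of 6 Ba/F3 clones (3 WT, 3 R98S) was sequenced from stranded libraries. The submitters' processing notes name Bowtie2, TopHat, SAMtools, HTSeq and DESeq2 and the mouse build mm10 (GRCm38); those notes carry no versions, and the annotation and counting strand are not given in the sources used here. Each deposited value is a normalized signal that the authors made by dividing read counts by DESeq2 size factors. Whole reads were recovered from them for 100% of values (within 0.1 read), which gave the library totals and the reads used in edgeR and DESeq2.

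Normalized counts were compared between groups with limma 3.58.1 (R 4.3.3) on log2(value + 1) with an intensity trend, two-sided, for 11550 genes with a mean of at least 10, with Benjamini-Hochberg adjustment and the 0.1 cut that the study used for its false discovery rate. edgeR 4.0.16 and DESeq2 1.42.0 on the recovered reads, other pseudocounts (0.5 and 5), filters, scalings and fits without each clone were the alternatives. The limma step was tested on simulated data with the same dispersion for every gene. Those data did not cover spreads between clones as wide as those of Gzmb, Cpa3, Hdc, Ms4a2 and Prtn3 (within-group SDs from 0.75 to 4.27). Sequences and start regions came from RefSeq, gene positions from GENCODE mouse release 21. The members and the 19 gene lists were chosen with earlier results of these data known. All 10 members were named; from each list, up to 4 called genes with the largest change and a mean of at least 100 (at least 10 where fewer than 2 qualified) were named, along with fixed partner genes and genomic neighbours, and any other gene is said to be chosen afterwards.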

Additional observations from a re-analysis of the deposited data

How the results depend on the processing

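No paired analysis was possible because the clone numbers differ between the groups. Over all genes, 2755 calls became 1722 at an adjusted p under 0.05 and ranged from 1327 (without WT clone 28) to 3219 when 1 clone was left out, with 1464 without WT clone 29 and 1578 without R98S clone 11. The 2 calls among the members became 1 with no intensity trend and 1 at 0.05, and ranged from 1 to 2 when 1 clone was left out. It was 1 without WT clone 28, WT clone 36, R98S clone 11 or R98S clone 35, and without WT clone 29 the 2 were Prtn3 and Hdc. With no filter Mpo was added, giving 3. Gzmb changed sign without WT clone 28 (2.03) and without R98S clone 13 (1.75), with a range of -2.28 to 2.03 over the fits without 1 clone. Of 112 values of single members under the alternatives, 102 kept their direction and side of the threshold, 7 lost the call (all Srgn, limma adjusted p of 0.113 with no intensity trend), 2 changed sign (Gzmb) and 1 gained a call (Hdc). Prtn3 was called under every alternative run. Of 304 counts of calls in the lists, 255 stayed within 1.5 times and 49 did not. The median of all genes was within 0.031 of 0 under every alternative. With 3 clones per group and single libraries, genes at or under 3 reads in every library cannot be compared.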

Other observations

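Eosinophil granule genes were not described above. Of 8 matched genes, 3 were tested and 1 was called lower, where 13.1% of all tested genes were. Siglec5, the row that carries the eosinophil lectin Siglec-F, was at 663, 632 and 1042 normalized counts in WT and at 168, 384 and 244 in R98S, and fell by 1.59 (limma adjusted p = 0.0162). Prg2, the major basic protein of eosinophil granules, was at 17.4, 3.22 and 99.1 in WT and at 15.01, 99.0 and 309 in R98S, with a log2 change of 1.998 (limma adjusted p = 0.325). Epx, eosinophil peroxidase, was at 12.3, 3.22 and 55.0 in WT and at 33.8, 31.6 and 48.1 in R98S (log2 fold change 1.38, limma adjusted p = 0.284). WT clone 29 was the lowest of the 6 for both genes. Both were named after their values were seen. Without WT clone 36 the list had 2 calls. Of the other marker lists, B lineage had 1 call among 2 tested genes (Cd79b, which rose by 1.22, limma adjusted p = 0.0617). Erythroid had 1 among 3 tested (Hba-a1, which fell by 3.52 and passed the filter through WT alone, limma adjusted p = 0.0389). The B lineage call was lost without WT clone 29 or 36 or R98S clone 11 or 13. The erythroid call was lost without WT clone 28 or R98S clone 11 or 35. Without WT clone 36 Hba-a1 was under the filter, and the 1 call of the list in that fit was another gene. Megakaryocyte and NK markers had 0 by limma, by edgeR and by DESeq2, also at an unadjusted p under 0.05.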
